A study of Homo sapiens with 16 samples.

Results

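Acetylation of histone H3 was compared between lysine 27 (H3K27ac) and lysine 9 (H3K9ac) in resting cholangiocytes, using 2 H3K27ac and 2 H3K9ac peak files from vehicle-treated cells, which are 4 of the 12 peak files of a ChIP-seq study of 16 samples. The cells were H69, an established human biliary epithelial line, given vehicle for 16 h with no other agent. Other cultures of the line received TGF beta (10 ng/ml, 16 h), and SMAD3 was profiled with and without it. Those libraries are read below at the places found in vehicle-treated cells, the treated acetylation libraries also entered 1 alternative of the gene fit, and 4 input samples were not analysed here. H69 is a single line, so every library is a sample of the same cells and the libraries of a mark measure the spread between samples of that line.

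H3K27ac is laid down by the paralogous acetyltransferases CBP and p300 and marks active enhancers as well as active promoters. H3K9ac is laid down mainly by GCN5 and PCAF, encoded by KAT2A and KAT2B, as subunits of the SAGA and ATAC complexes, and is best known from promoters and the first nucleosomes of transcribed genes. Cholangiocytes line the bile ducts and carry keratins 7 and 19 and SOX9, and Notch signalling through JAG1 is needed to form ducts in the liver. The files hold peaks and no reads, so a difference below is one in which bases were called as peak, and read depth is unknown. The H3K27ac libraries held 82259 and 83429 peaks, against 61297 and 55069 in the H3K9ac libraries. Of the cell type markers, 8 of 10 cholangiocyte markers had a peak within 2.5 kb of the gene start in all 4 libraries, against 4 of 8 hepatocyte, 6 of 8 mesenchymal and endothelial, and 3 of 8 leukocyte markers. In the longer cholangiocyte list 8 of 18 known starts (44.4%) had both marks within 1 kb in all 4 libraries, against 60.3% of all starts, so these counts do not set the labelled cell type apart. The chloride channel gene CFTR was listed at 0 in all 4 libraries although it marks bile duct cells, as were ALB and TTR of hepatocytes and CD3D and MS4A1 of lymphocytes.

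H3K27ac covered more of the genome and H3K9ac more of the gene starts. H3K27ac peaks covered 54.7 and 59.1 Mb, against 44.1 and 39.3 Mb for H3K9ac. Strand was known for 79.2% of protein-coding genes, and for the others both gene ends counted as starts, here and in region locations and distances below. Within 1 kb of a start so defined lay 23.9% and 23.1% of H3K27ac peaks, against 33.3% and 36.9% of H3K9ac peaks. The libraries of the marks did not overlap in this share, with means of 23.5% ± 0.555 and 35.1% ± 2.56 (SD, n = 2 each) and a difference of -11.6 percentage points between H3K27ac and H3K9ac. With 2 libraries a mark a two-sided exact permutation test cannot give a p below 0.333, which is the value for this difference. When only each library's 55069 highest-scoring peaks were kept, the difference was -5.04 points.

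In absolute length the marks split by location. At gene starts H3K27ac covered 18.5 and 19.8 Mb and H3K9ac 23.9 and 22.5 Mb. Inside genes and away from their starts H3K27ac covered 21.0 and 23 Mb, against 12.2 and 10.3 Mb for H3K9ac. Outside genes the lengths were 15.2 and 16.3 Mb for H3K27ac and 8.02 and 6.52 Mb for H3K9ac. In each of the 3 locations the libraries of one mark lay entirely on one side of those of the other, with H3K9ac the longer mark at starts and H3K27ac elsewhere. The median H3K27ac peak at a start measured 727 and 774 bp, against 1003 and 943 bp for H3K9ac, whereas elsewhere the medians were 324 and 335 bp for H3K27ac and 304 and 302 bp for H3K9ac. Of the top 10% of peaks by score, 67.4% and 68.3% lay at starts for H3K27ac, against 86.1% and 86.1% for H3K9ac. The score is the authors' own value for each peak.

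The marks shared much of their territory, and H3K9ac was the more enclosed of the pair. Measured in base pairs, 53.1% to 60.9% of H3K27ac peak length lay inside H3K9ac peaks over the 4 pairs of libraries, and 75.5% to 79.9% of H3K9ac length lay inside H3K27ac peaks. The overlap between libraries, as shared length over combined length, was 0.745 for the H3K27ac pair and 0.767 for the H3K9ac pair, against 0.468 to 0.508 between marks. Libraries of one mark were thus closer to each other than to either library of the other mark.

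Merging the peaks of the 4 libraries wherever they overlapped by at least 1 bp gave 94323 regions. Both marks were called in all 4 libraries in 31079 regions, which is 32.9%. H3K27ac was called in both of its libraries and H3K9ac in neither in 19291 regions (20.5%), and H3K9ac alone was called in this way in 5110 regions (5.42%). The other 38843 regions were called in a single library of a mark or in another mixture, among them 23106 seen in 1 H3K27ac library and 7269 seen in 1 H3K9ac library. Regions with both marks were long, with a median of 1308 bp, and 49.0% lay at gene starts. H3K27ac-only regions had a median of 410 bp, and 2.11% lay at starts, 55.1% inside genes and 42.8% outside genes. H3K9ac-only regions had a median of 388 bp and were spread over starts (36.2%), gene interiors (34.6%) and the space between genes (29.2%). The median distance to the nearest gene start was 39580 bp for H3K27ac-only regions, against 2303 bp for H3K9ac-only regions and 1320 bp for regions with both marks.

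The share of H3K27ac-only regions went up with distance from a start. Within 1 kb of a start 74.5% of regions had both marks, 2.0% had H3K27ac only and 9.05% had H3K9ac only. Between 1 and 5 kb the shares were 19.7% with both marks, 12.4% with H3K27ac only and 9.09% with H3K9ac only. Between 5 and 20 kb the shares were 23.6%, 23.9% and 4.58%, and beyond 100 kb they were 19.3%, 32.9% and 2.53%. With all called peaks, H3K27ac-only regions thus outnumbered those with both marks from 5 kb outward, narrowly between 5 and 20 kb (4325 and 4279). The share with both marks lay between 19.3% and 23.6% in every bin beyond 1 kb. The H3K27ac libraries held more peaks, and the bins were not counted again with equally many peaks per library. In that setting there were 8922 H3K27ac-only regions and 29046 with both marks over all distances.

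**Figure D1:**
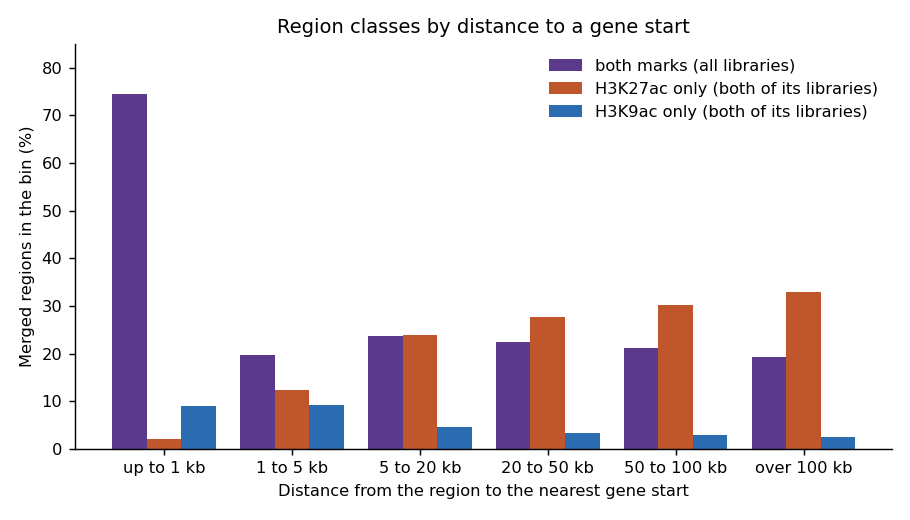
Percent of merged regions with both marks in all libraries, H3K27ac only or H3K9ac only (y axis), by distance to the nearest gene start, or gene end where no strand is known (x axis). Both marks hold 74.5% of regions up to 1 kb, and H3K27ac-only regions go up at each step to 32.9% beyond 100 kb.

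One-mark regions were made of lower-scoring peaks. Of each H3K27ac library's top 10% of peaks by score, 99.96% and 99.94% lay in regions with both marks, and 0 and 1 peaks lay in H3K27ac-only regions. Of the top 10% in each H3K9ac library, 100% lay in regions with both marks. Of all peaks, 53.5% and 48.7% in the H3K27ac libraries and 70.8% and 80.1% in the H3K9ac libraries lay in regions with both marks. The median H3K27ac-only peak sat at score percentile 34.0 and 38.6 of its library, against 72.5 and 75 for H3K27ac peaks in regions with both marks. H3K9ac-only peaks sat at percentile 41.6 and 35.5, against 63.3 and 58.3 for H3K9ac peaks in regions with both marks. The part of peak strength and of calling thresholds in the classes was not tested. Keeping the 55069 highest-scoring peaks of each library gave 8922 H3K27ac-only and 6201 H3K9ac-only regions, so the number of H3K27ac-only regions moved by more than 1.5 times with the number of peaks called. Asking for only 1 library of a mark instead raised the counts, to 34703 and 37184 H3K27ac-only regions without H3K27ac replicate 2 and replicate 1, and to 8986 and 11206 H3K9ac-only regions without H3K9ac replicate 1 and replicate 2.

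The classes could also be read in libraries that had no part in making them. In cells given TGF beta, 68.9% of the H3K27ac-only regions were called in both H3K27ac libraries and 85.3% in neither H3K9ac library. Of the H3K9ac-only regions, 64.9% were called in both H3K9ac libraries of treated cells and 80.5% in neither H3K27ac library. Regions with both marks were called in both treated H3K27ac libraries in 96.5% and in both treated H3K9ac libraries in 89.2%. Over all regions, 61.5% were called in both treated H3K27ac libraries and 28.9% in neither. For the treated H3K9ac libraries these shares were 39.0% and 53.3%. The 68.9% of H3K27ac-only regions thus lay not far above the share of all regions. These are treated cells, so a changed call and the treatment cannot be told apart.

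Where both marks were present, their extents differed by location. At gene starts the H3K27ac peak was the longer in all 4 library pairs in 12.7% of 15241 regions, and the H3K9ac peak in 60.9%. Inside genes the H3K27ac peak was the longer in 63.5% of 8701 regions and the H3K9ac peak in 19%. Outside genes the shares were 66.4% for H3K27ac and 17.8% for H3K9ac, of 7137 regions. Mean covered lengths at starts were 1293 and 1353 bp for H3K27ac and 1544 and 1477 bp for H3K9ac.

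The longer H3K9ac at starts reached into the gene. A start with known strand was available for 15811 of 19970 protein-coding genes, and 9527 of them (60.3%) had both marks within 1 kb in all 4 libraries. Over the 2.5 kb downstream of these starts, H3K27ac peaks covered a mean of 1186 and 1240 bp and H3K9ac peaks 1509 and 1447 bp. Over the 2.5 kb upstream, the means were 748 and 790 bp for H3K27ac and 890 and 829 bp for H3K9ac. At 1000 bp into the gene 55.1% and 58.4% of starts lay under an H3K27ac peak, against 80.0% and 76.5% under an H3K9ac peak. At 1000 bp upstream the shares were 32.4% and 35.1% for H3K27ac and 41.4% and 38.3% for H3K9ac. Both marks dipped just upstream of the start, where promoters are commonly free of nucleosomes: at 100 bp upstream 39.7% and 42.0% of starts lay under H3K27ac and 47.0% and 44.3% under H3K9ac, whereas at 100 bp downstream 92.6% and 93.2% lay under H3K27ac and 95.7% and 95.3% under H3K9ac. At 5000 bp downstream the order was the other way, with 5.99% and 6.55% of starts under H3K27ac and 4.63% and 4.11% under H3K9ac.

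**Figure D2:**
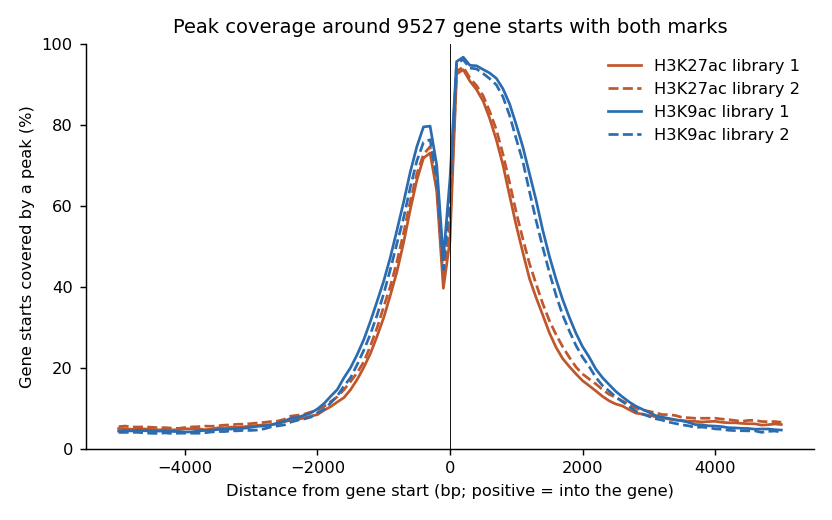
Percent of 9527 gene starts with both marks that lie under a peak (y axis), by distance from the start in bp (x axis, positive into the gene), with a line per library. All libraries dip just upstream of the start, and at 1000 bp into the gene the H3K9ac lines lie at 80.0% and 76.5%, above the H3K27ac lines at 55.1% and 58.4%.

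Single-mark starts were lopsided toward H3K9ac. Of the 15811 starts, 54 (0.342%) carried H3K27ac only and 831 (5.26%) H3K9ac only, with 4955 (31.3%) under neither mark and 444 in another mixture. The H3K9ac-only starts resembled the starts with both marks in base composition, and the H3K27ac-only starts resembled those with neither mark. Over the 300 bases from 250 before to 50 after the start, median GC content was 50% at 39 H3K27ac-only starts with a sequence, 69% at 725 H3K9ac-only starts, 65.7% at 8541 starts with both marks and 51.7% at 4120 starts with neither. The median count of CpG dinucleotides was 4 at H3K27ac-only starts, 27 at H3K9ac-only starts, 27 at starts with both marks and 5 at starts with neither. CpG-rich promoters are typical of widely expressed and developmental genes, and CpG-poor ones of tissue-restricted genes.

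Of the short promoter words, the TATA box and the GC box followed the same split and others did not. The TATA box (TATAAA) was found in 17.9% of H3K27ac-only, 7.72% of H3K9ac-only and 5.23% of both-mark promoters, against 20.5% of promoters with neither mark and 10.0% of all 13791 promoters. The AP-1 site (TGACTCA), bound by FOS and JUN dimers, was found in 12.8% of H3K27ac-only, 2.48% of H3K9ac-only and 2.73% of both-mark promoters, against 5.46% of those with neither and 3.65% of all. GC boxes (GGGCGG), bound by SP1 and its relatives, were found in 23.1% of H3K27ac-only, 70.5% of H3K9ac-only and 73.2% of both-mark promoters, against 26.5% of those with neither and 58.5% of all. The ETS site (CCGGAAG) was in 0% of the 39 H3K27ac-only promoters, 3.17% of H3K9ac-only promoters and 21.9% of promoters with both marks, against 2.48% of those with neither and 14.6% of all. The CCAAT box was less frequent in both single-mark classes, at 28.2% of H3K27ac-only and 27.3% of H3K9ac-only promoters, than in promoters with both marks (38.1%) or neither (37.7%). The YY1 core was in 5.13% of H3K27ac-only, 2.62% of H3K9ac-only and 8.13% of both-mark promoters, against 4.78% of those with neither. Words were searched on both strands over the same 300 bases, and the H3K27ac-only shares rest on 39 promoters.

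A pair of promoters from each class is printed, and not every one follows its class in base composition or words. Each pair has the longest regions of the class at the start among genes in a list or called in a fit below and with a promoter sequence available. They are RefSeq sequences of build GRCh38.p14, 5′ to 3′ on the gene's own strand. Capitals mark matches on either strand to the TATA box, CCAAT box, GC box, ETS and AP-1 words, the YY1 core (AAGATGG) and the E-box (CACGTG), with overlapping matches run together. ACTN4, which encodes the actin crosslinker alpha-actinin 4, had a region of 20655 bp with both marks at its start, and its promoter at chr19:38647399-38647698 (plus strand) held 6 GC boxes. BCL2L1, encoding the survival protein BCL-xL, had a region of 15794 bp with both marks beside chr20:31723914-31724213 (minus strand), with 2 TATAAA words and 1 ETS site. It had no GC box, 52.0% GC and 20 CpG, below the class medians of 65.7% and 27.
ACTN4: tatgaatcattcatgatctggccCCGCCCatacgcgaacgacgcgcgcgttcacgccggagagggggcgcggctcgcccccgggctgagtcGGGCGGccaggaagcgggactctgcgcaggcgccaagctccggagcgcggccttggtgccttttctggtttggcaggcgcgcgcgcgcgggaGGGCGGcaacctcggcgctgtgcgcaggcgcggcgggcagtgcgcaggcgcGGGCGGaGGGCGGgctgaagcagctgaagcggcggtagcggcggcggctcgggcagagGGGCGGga
BCL2L1: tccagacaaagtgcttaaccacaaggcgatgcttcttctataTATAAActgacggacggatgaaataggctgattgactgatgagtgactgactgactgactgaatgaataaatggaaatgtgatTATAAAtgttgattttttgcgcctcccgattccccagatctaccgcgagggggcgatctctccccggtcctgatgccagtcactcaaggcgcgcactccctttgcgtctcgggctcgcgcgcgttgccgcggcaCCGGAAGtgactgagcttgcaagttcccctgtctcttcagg
FAM186A at chr12:50396560-50396859 (minus strand) and CPA4, a carboxypeptidase gene, at chr7:130292911-130293210 (plus strand) carried H3K27ac only. FAM186A had 42.0% GC and 2 CpG. CPA4 had 46.3% GC and 1 CpG, and its 300 bases held 2 AP-1 words, 2 CCAAT words and 2 overlapping TATA words.
FAM186A: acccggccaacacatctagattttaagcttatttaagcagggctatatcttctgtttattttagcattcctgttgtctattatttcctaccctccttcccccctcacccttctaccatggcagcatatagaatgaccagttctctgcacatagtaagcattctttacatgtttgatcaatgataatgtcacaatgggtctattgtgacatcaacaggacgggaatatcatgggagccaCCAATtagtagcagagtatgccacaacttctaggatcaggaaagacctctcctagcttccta
CPA4: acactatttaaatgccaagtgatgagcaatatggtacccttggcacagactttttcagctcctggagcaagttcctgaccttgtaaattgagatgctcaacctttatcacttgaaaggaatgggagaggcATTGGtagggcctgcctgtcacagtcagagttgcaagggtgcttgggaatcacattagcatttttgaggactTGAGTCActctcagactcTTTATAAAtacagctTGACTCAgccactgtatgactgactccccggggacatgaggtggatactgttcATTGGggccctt
NOL4L at chr20:32585284-32585583 (minus strand) and TGFBR3L at chr19:7914580-7914879 (plus strand) carried H3K9ac only. NOL4L had 79.0% GC, 36 CpG and 5 GC boxes. TGFBR3L, whose region began 951 bp from the start, had 65.3% GC, 1 CCAAT word, 1 E-box and no GC box. Its 9 CpG lay below the class median of 27.
NOL4L: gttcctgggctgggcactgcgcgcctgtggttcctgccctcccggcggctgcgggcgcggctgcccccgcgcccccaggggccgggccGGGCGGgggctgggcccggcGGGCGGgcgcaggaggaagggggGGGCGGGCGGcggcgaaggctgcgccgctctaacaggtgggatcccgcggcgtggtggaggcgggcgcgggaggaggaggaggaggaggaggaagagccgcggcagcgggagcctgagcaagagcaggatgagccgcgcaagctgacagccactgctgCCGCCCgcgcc
TGFBR3L: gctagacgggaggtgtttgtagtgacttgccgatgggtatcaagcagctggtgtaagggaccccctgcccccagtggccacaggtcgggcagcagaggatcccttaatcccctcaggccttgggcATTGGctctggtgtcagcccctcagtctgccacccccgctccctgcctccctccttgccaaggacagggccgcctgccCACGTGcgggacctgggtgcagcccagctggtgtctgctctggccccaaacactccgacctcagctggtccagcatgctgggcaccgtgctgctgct
A match is a word in this window and not a shown binding site.

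SMAD3, the receptor-activated transcription factor of TGF-beta signalling, gave a readout that the classes did not use. In vehicle-treated cells 58.4% of regions with both marks overlapped a SMAD3 peak in both SMAD3 libraries, against 0.358% of H3K27ac-only regions and 7.44% of H3K9ac-only regions. At gene starts the shares were 89.2% with both marks, 6.37% with H3K27ac only and 11.8% with H3K9ac only. Inside genes they were 29.2%, 0.235% and 5.60% in the same order of classes, and outside genes 28.4%, 0.218% and 4.22%. Of all merged regions 20.3% overlapped SMAD3 in this way, with 69.1% at starts, 6.51% inside genes and 7.34% outside genes. Regions with both marks are longer, so lengths were matched: among regions of at least 500 and under 1000 bp away from starts, SMAD3 lay in 23.4% of 4477 with both marks, 0.260% of 5763 with H3K27ac only and 8.34% of 731 with H3K9ac only. Among regions of at least 1000 and under 2000 bp away from starts the shares were 30.6% of 5524, 0.179% of 1119 and 17.8% of 157.

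Matching on score left the contrast for H3K27ac and not for H3K9ac. H3K27ac peaks of score percentile 40 to 60 and away from starts overlapped SMAD3 in both of its libraries in 0.186% and 0.181% where H3K9ac was absent, and in 10.0% and 10.1% where both marks were present. H3K9ac peaks of the same percentiles overlapped SMAD3 in 5.14% and 7.28% where H3K27ac was absent, and in 4.86% and 8.45% where both marks were present. Each pair of values is the pair of libraries of the mark, and regions within a library are not replicates.

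**Figure D3:**
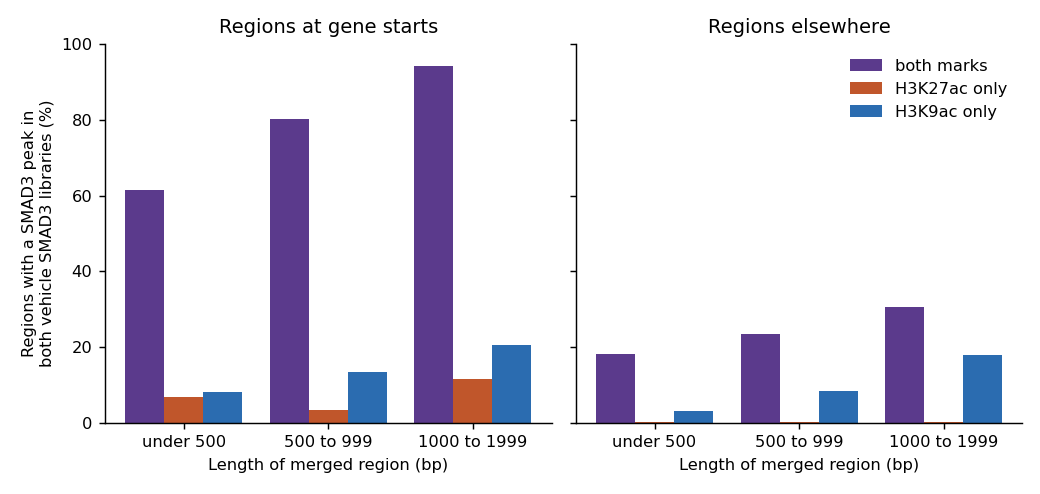
Percent of merged regions with a SMAD3 peak in both vehicle SMAD3 libraries (y axis), by region length in bp (x axis), at gene starts (left) and elsewhere (right), for the 3 region classes. Regions of at least 500 and under 1000 bp elsewhere reach 23.4% with both marks, 0.260% with H3K27ac only and 8.34% with H3K9ac only.

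Per gene, the peak length of each mark was summed over the gene and 10 kb on each side and compared by limma on log2(bp + 500), after setting the medians of the libraries equal. A positive value means that a gene had more H3K27ac relative to the other genes. Of 14407 genes tested, 3946 (27.4%) had more H3K27ac and 4369 (30.3%) more H3K9ac at an adjusted p under 0.05, and the raw lengths of the marks did not overlap in 3882 and all 4369 of them. Neighbouring genes share peaks: the genes with more H3K27ac formed 2820 separate loci and those with more H3K9ac 2707. Without equal medians the counts were 3162 and 4928. Without H3K9ac replicate 2, whose partner is then assumed to vary like the H3K27ac libraries, 2861 genes had more H3K9ac.

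Genes with more H3K27ac were long. Their median span was 52.0 kb, against 23.1 kb for genes with more H3K9ac and 29.4 kb for all genes tested. Genes with more H3K27ac held a median of 6.19 kb of H3K27ac and 3.78 kb of H3K9ac, of which 2.0 kb and 2.08 kb lay within 2.5 kb of the start. Genes with more H3K9ac held 1.47 kb of H3K27ac and 2.55 kb of H3K9ac, of which 0.989 kb and 1.77 kb lay near the start. Away from the start, the medians were 4.2 kb of H3K27ac and 1.72 kb of H3K9ac in the genes with more H3K27ac, and 0.150 kb of H3K27ac and 0.746 kb of H3K9ac in those with more H3K9ac. The marks thus differed mainly away from the start in the first set and in both places in the second.

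The largest difference toward H3K27ac was at FGB. This gene, which encodes the fibrinogen beta chain made by hepatocytes, held 5.45 and 5.80 kb of H3K27ac and 0.295 and 0.252 kb of H3K9ac, a log2 difference of 3.07 ± 0.08 (SE; limma adjusted p = 7.38e-06). BATF, an AP-1 family factor best known from lymphocytes, held 10.6 and 11.8 kb of H3K27ac and 1.47 and 1.08 kb of H3K9ac (2.81 ± 0.10). SFTPB, encoding surfactant protein B of lung epithelium, had 3.25 and 3.16 kb of H3K27ac and was listed at 0 in both H3K9ac libraries. KCNMA1 (large-conductance potassium channel), CUZD1, ANXA13 (annexin A13) and BPIFB4 were also among the loci with the largest values, at log2 differences of 3.07, 3.01, 2.78 and 2.78. Loci were named only where the lowest H3K27ac library lay above the highest H3K9ac library, so this separation follows from the choice.

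The largest difference toward H3K9ac was at DLX2. This gene, which encodes a homeobox factor of forebrain and craniofacial development, held 0.164 and 0 kb of H3K27ac, against 5.37 and 4.18 kb of H3K9ac in 7 H3K9ac-only regions (-3.10 ± 0.16; limma adjusted p = 1.36e-05). NTNG2, encoding the axon guidance protein netrin-G2, was listed at 0 in both H3K27ac libraries and held 3.57 and 3.74 kb of H3K9ac. PDE4A, a cAMP phosphodiesterase gene, held 0 and 0.156 kb of H3K27ac, against 4.11 and 3.85 kb of H3K9ac. DLL3, a divergent Notch ligand, was at 0 in both H3K27ac libraries, against 3.74 and 2.59 kb of H3K9ac. IGDCC4, STAC3, DDN (dendrin) and SCARF2 were also at 0 in both H3K27ac libraries, with log2 differences of -2.89, -2.79, -2.73 and -2.71. A value against a mark at 0 depends on the 500 bp added to each length and is not a fold change.

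Genes of biliary identity were found on both sides. Of 21 tested members of the cholangiocyte list, 10 had more H3K27ac (47.6%, beside 27.4% of all genes) and 6 more H3K9ac (28.6%, near the 30.3% of all genes), with a median log2 difference of 0.16 against -0.07 over all genes. KRT19, encoding keratin 19, held 7.73 and 8.04 kb of H3K27ac and 4.18 and 4.12 kb of H3K9ac (0.93 ± 0.08; limma adjusted p = 9.27e-05). KRT7, encoding keratin 7, held 22 and 23.3 kb of H3K27ac and 15.4 and 13 kb of H3K9ac (0.75 ± 0.09; adjusted p = 0.000318). Both keratins were thus marked over many kilobases by each modification, with H3K27ac the longer in every library.
The liver and bile duct factors ONECUT1 and ONECUT2 stood at the other end. ONECUT1 was at 0 in both H3K27ac libraries and held 1.37 and 1.25 kb of H3K9ac, and ONECUT2 was at 0 for H3K27ac and held 2.05 and 2.54 kb of H3K9ac, at log2 differences of -1.77 ± 0.08 and -2.39 ± 0.13. SOX9, the bile duct SOX factor, held 1.96 and 2.13 kb of H3K27ac and 3.71 and 3.21 kb of H3K9ac (-0.55 ± 0.08; adjusted p = 0.00102). EPCAM, an adhesion molecule of epithelia, had 0.208 and 0.645 kb of H3K27ac and 0.918 and 1.07 kb of H3K9ac (limma adjusted p = 0.0265), a call that was lost without H3K27ac replicate 1 (log2 difference -0.33), without H3K9ac replicate 2 (-0.51), with 50 kb flanks (-0.15) and with 100 bp added in place of 500 (-1.09).

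Genes of adhesion, cytoskeleton and matrix had more H3K27ac in most members over the gene and 10 kb on each side. In the list of integrins and cytoskeleton 22 of 24 tested genes had more H3K27ac and 1 more H3K9ac, with a median log2 difference of 0.81. Of 20 tested YAP targets, 16 had more H3K27ac and 2 more H3K9ac, and of 20 extracellular matrix genes 15 and 1. These shares stand beside 27.4% and 30.3% over all genes. Within 2.5 kb of the start, 12 of 21, 11 of 18 and 7 of 19 had more H3K27ac in the same order. More H3K9ac was called in 1, 1 and 0 there, beside 17.0% and 18.3% of all genes. Without equal medians these start counts were 3, 1 and 4 with more H3K27ac and 1, 2 and 3 with more H3K9ac. PALLD, encoding the actin-bundling protein palladin, held 37.4 and 37.8 kb of H3K27ac and 14.4 and 10.7 kb of H3K9ac. LATS2, a kinase that restrains YAP and is itself a YAP target, held 11.4 and 12.8 kb of H3K27ac and 3.43 and 2.92 kb of H3K9ac. List members were named only where the libraries of the marks did not overlap. The windows of PALLD and LATS2 held 26 and 13 H3K27ac-only regions.
LAMB3 and LAMA3, chains of an epithelial laminin, had log2 differences of 1.46 ± 0.08 and 1.39 ± 0.08. ITGB5, encoding integrin beta 5, held 13.7 and 13.5 kb of H3K27ac and 5.26 and 3.92 kb of H3K9ac. ITGB6, an integrin chain of epithelia, held 6.58 and 6.50 kb of H3K27ac and 4.04 and 3.27 kb of H3K9ac. AMOTL1, encoding an angiomotin-like junction protein, went the other way, with 0.425 and 0.720 kb of H3K27ac, against 2.86 and 2.76 kb of H3K9ac. Among junction genes the split was 10 more H3K27ac and 4 more H3K9ac of 21, led by CDH1 (E-cadherin), with 27.2 and 30.1 kb of H3K27ac and 12.9 and 9.10 kb of H3K9ac.

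TGF-beta pathway genes had more H3K27ac more often than more H3K9ac over the gene and 10 kb on each side in these vehicle-treated cells. Of 21 tested members 12 had more H3K27ac (57.1%) and 4 more H3K9ac (19%), beside 27.4% and 30.3% of all genes. SMAD3 itself held 64.9 and 69.5 kb of H3K27ac and 25.9 and 24.5 kb of H3K9ac (1.48 ± 0.08; limma adjusted p = 1.46e-05), in 13 regions with both marks and 27 with H3K27ac only. NEDD9, encoding a scaffold of focal adhesions, held 27.6 and 28.9 kb of H3K27ac and 9.65 and 9.02 kb of H3K9ac. TGFB2, a TGF-beta ligand gene from the list of YAP targets, held 29.5 and 32.6 kb of H3K27ac and 10.9 and 9.22 kb of H3K9ac. LTBP1, which stores latent TGF-beta in the matrix, held 10.2 and 11.3 kb of H3K27ac, against 3.57 and 3.05 kb of H3K9ac. Members with more H3K9ac included BAMBI, encoding a pseudoreceptor that blocks the pathway, with 0.399 and 0.470 kb of H3K27ac and 1.97 and 1.71 kb of H3K9ac. LTBP4, a relative of LTBP1, held 4.58 and 4.86 kb of H3K27ac and 9.01 and 7.86 kb of H3K9ac. Within 2.5 kb of the start 8 of 18 tested members had more H3K27ac and 3 more H3K9ac, beside 17.0% and 18.3% of all genes. Without equal medians these start counts turned to 2 and 7, beside 597 and 5119 of all 12217 genes.

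Notch and WNT genes leaned toward H3K9ac. Of 22 tested members 4 had more H3K27ac and 9 more H3K9ac, beside 27.4% and 30.3% of all genes. Among 17 members with a known start 6 carried H3K9ac only there, which were JAG2, DLL4, NOTCH3, HEYL, WNT3 and WNT4, against 5.26% of all starts. JAG2, a Notch ligand, was at 0 in both H3K27ac libraries and held 1.74 and 2.33 kb of H3K9ac (-2.25 ± 0.14; limma adjusted p = 2.67e-05). DLL1, another ligand, was at 0 for H3K27ac and held 0.858 and 1.82 kb of H3K9ac, so its H3K9ac libraries differed by about as much as the lower of them. The ligand, receptor and target that were looked at after these values, JAG1, NOTCH1 and HES1, had both marks at the start. JAG1 held 10.2 and 11.6 kb of H3K27ac and 8.63 and 7.49 kb of H3K9ac. NOTCH1 held 5.01 and 5.55 kb of H3K27ac and 6.34 and 5.73 kb of H3K9ac (adjusted p = 0.357 from limma), and HES1 held 8.26 and 8.17 kb of H3K27ac and 8.45 and 7.92 kb of H3K9ac, where the marks overlap. Members with more H3K27ac included LRP5, a WNT coreceptor, at 0.99 ± 0.09 and TCF7L2, the WNT-responsive factor, at 0.94 ± 0.10.

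**Figure D4:**
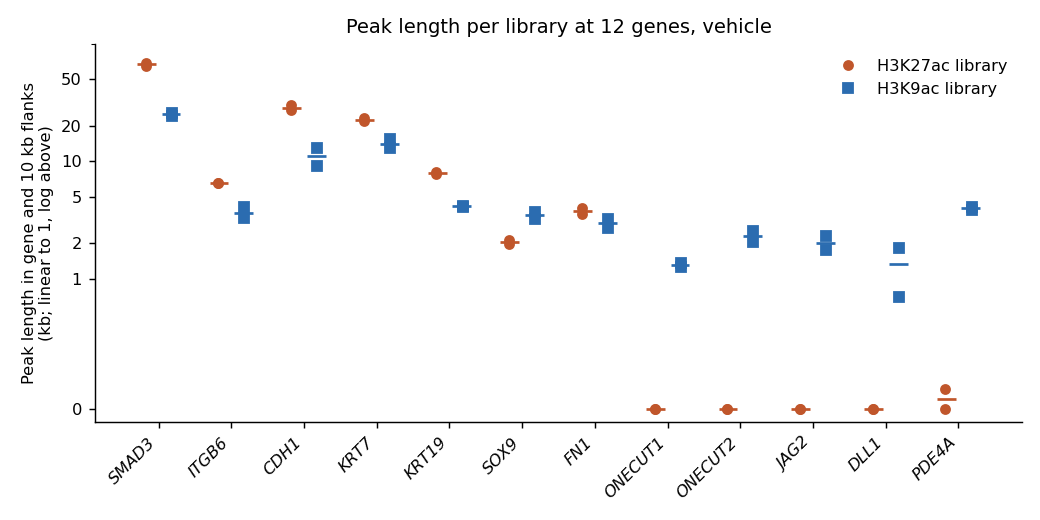
Peak length in kb over the gene and 10 kb on each side (y axis, linear to 1 and log above) in every H3K27ac library (left of each pair) and H3K9ac library (right) for 12 genes, with horizontal lines at the means. SMAD3 lies at 64.9 and 69.5 kb of H3K27ac over 25.9 and 24.5 kb of H3K9ac, while ONECUT1, ONECUT2, JAG2 and DLL1 have 0 kb of H3K27ac in both libraries.

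Inflammatory and interferon genes had more H3K27ac more often than more H3K9ac. Of 21 tested chemokine, cytokine and NF-kB genes 12 had more H3K27ac and 2 more H3K9ac, and of 23 interferon-stimulated genes 12 and 2, which became 7 and 2 without equal medians. All genes stood at 27.4% with more H3K27ac and 30.3% with more H3K9ac. CSF2, encoding GM-CSF, held 2.51 and 2.95 kb of H3K27ac and 0.618 and 0.248 kb of H3K9ac. CXCL2, a neutrophil chemokine gene, held 5.65 and 6.13 kb of H3K27ac and 2.83 and 2.45 kb of H3K9ac. IFIT3, an interferon-induced gene, had 0.77 ± 0.09 on the log2 scale. RSAD2, encoding the antiviral enzyme viperin, was the opposite, at 0 in both H3K27ac libraries and with 1.99 and 1.57 kb of H3K9ac. Of 20 AP-1 and immediate early genes 10 had more H3K27ac and 6 more H3K9ac, the second share (30%) being that of all genes, with MYC holding 8.4 and 9.38 kb of H3K27ac and 6.45 and 6.20 kb of H3K9ac. EGR3, an early growth response factor, held 1.20 and 1.16 kb of H3K27ac and 3.15 and 2.31 kb of H3K9ac.

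Several lists of basic cell functions had few calls toward H3K27ac over the gene and 10 kb on each side. Of 24 tested genes of the mitochondrial respiratory chain 1 had more H3K27ac and 11 more H3K9ac, of 21 splicing factors 1 and 7, and of 83 cytosolic ribosomal protein genes 7 and 19, with 57 not passing (3 and 27 without equal medians). Of 459 zinc finger genes with ZNF symbols, many of which encode KRAB repressors, 34 had more H3K27ac and 138 more H3K9ac. The shares with more H3K27ac were 4.17%, 4.76%, 8.43% and 7.41% in the order given, beside 27.4% of all genes. The shares with more H3K9ac were 45.8%, 33.3%, 22.9% and 30.1%, beside 30.3% of all genes, with the respiratory chain the highest. Their medians were -0.27, -0.14, -0.12 and -0.15 on the log2 scale, against -0.07 over all genes. Near starts the lists did not all keep this lean. Within 2.5 kb, more H3K27ac and more H3K9ac were called in 1 and 4 of 23, 3 and 2 of 21, 13 and 2 of 83, and 46 and 44 of 417. All genes stood at 17.0% and 18.3% there. Without equal medians these start counts were 0 and 14, 0 and 7, 1 and 29, and 6 and 151, beside 597 and 5119 of all 12217 genes. NDUFS7, of respiratory complex I, held 1.48 and 2.52 kb of H3K27ac and 4.44 and 5.32 kb of H3K9ac, a call lost with 2.5 kb flanks (log2 difference -0.53). UQCRC1, of complex III, was the member with more H3K27ac, at 8.78 and 8.72 kb of H3K27ac and 4.28 and 3.09 kb of H3K9ac. RPL38, a ribosomal protein gene, held 2.89 and 3.51 kb of H3K27ac and 5.70 and 5.67 kb of H3K9ac. The list of glycolysis and the citrate cycle had 10 members with more H3K27ac and 3 with more H3K9ac of 21, among them HK1, a hexokinase gene, at 15.2 and 16.9 kb of H3K27ac and 6.92 and 5.01 kb of H3K9ac. Of 20 tested housekeeping genes 5 had more H3K27ac (25%, near the 27.4% of all genes) and 2 more H3K9ac (10%) over the gene window. Of 24 cell cycle genes the counts were 5 (20.8%) and 4 (16.7%). GAPDH held 9.20 and 10.8 kb of H3K27ac and 6.88 and 6.89 kb of H3K9ac (limma adjusted p = 0.00150). ACTB, with 6.98 and 7.0 kb of H3K27ac and 6.05 and 6.61 kb of H3K9ac, did not pass (adjusted p = 0.104), but passed with 50 kb flanks (log2 difference 0.23) and without H3K9ac replicate 2 (0.33).

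**Figure D5:**
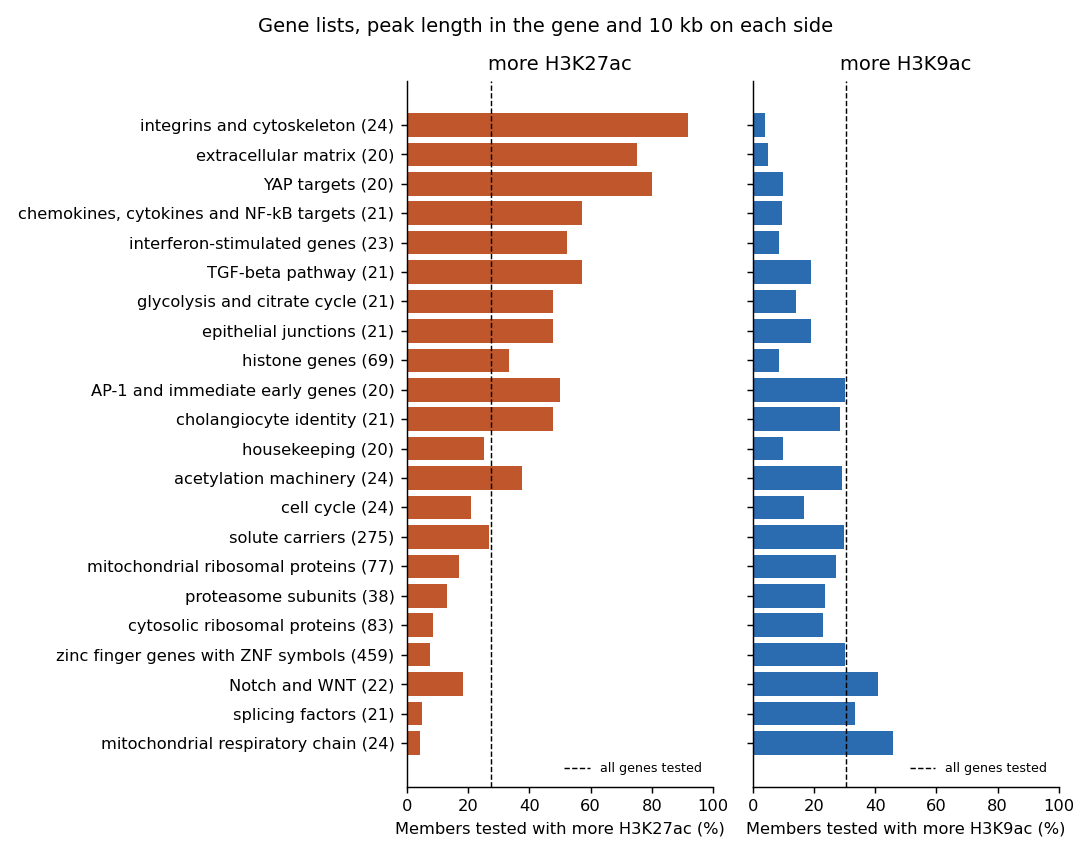
Percent of tested members with more H3K27ac (left) and more H3K9ac (right) over the gene and 10 kb on each side, by gene list with the number tested in brackets; dashed lines mark all genes tested, at 27.4% and 30.3%. Lists with 12 or fewer tested members are not shown. Among the lists shown, integrins and cytoskeleton lie highest on the left, and the mitochondrial respiratory chain highest on the right.

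The enzymes themselves were marked too. Of 24 tested genes of the acetylation machinery 9 had more H3K27ac (37.5%, beside 27.4% of all genes) and 7 more H3K9ac (29.2%, near the 30.3% of all genes), and all 20 with a known start had both marks there, beside 60.3% of all starts. KAT2B, encoding PCAF, held 7.06 and 7.94 kb of H3K27ac and 3.62 and 3.22 kb of H3K9ac. KAT2A, encoding GCN5, held 5.80 and 6.29 kb of H3K27ac and 5.08 and 4.14 kb of H3K9ac (0.45 ± 0.09; limma adjusted p = 0.00445), a call lost when each library was cut to equally many peaks (0.17) and with 50 kb flanks (0.08). EP300, encoding p300, held 2.39 and 2.92 kb of H3K27ac and 3.63 and 3.21 kb of H3K9ac and did not pass (-0.23; limma adjusted p = 0.0638). It passed with more H3K9ac under 5 other settings: with 50 kb flanks (-0.34; adjusted p = 0.00397), without H3K27ac replicate 2 (-0.32), with 2000 bp added (-0.16), with all 8 acetylation libraries (-0.23) and with limma's trend and robust options (-0.23). SIRT6, a deacetylase of H3K9ac, held 0.925 and 1.44 kb of H3K27ac, against 3.60 and 3.02 kb of H3K9ac.

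Markers of other cell types did not all lie on one side. Of 12 tested mesenchymal and endothelial markers 9 had more H3K27ac and 2 more H3K9ac, of 11 hepatocyte markers 5 and 6, and of 10 leukocyte markers 3 and 2, beside 27.4% and 30.3% of all genes. PECAM1, which marks endothelium, held 13.8 and 13.3 kb of H3K27ac and 3.8 and 2.43 kb of H3K9ac in its window but had no peak within 2.5 kb of either end. PTPRC, the leukocyte marker CD45, held 2.70 and 2.75 kb of H3K27ac and 0.195 and 0.227 kb of H3K9ac. FGA, encoding the fibrinogen alpha chain and a neighbour of FGB, held 2.47 and 2.67 kb of H3K27ac and was at 0 for H3K9ac. PDGFRA, which marks mesenchyme, held 0.978 and 0.494 kb of H3K27ac, against 4.29 and 3.59 kb of H3K9ac. APOB, a lipoprotein gene of liver and gut, held 5.26 and 5.41 kb of H3K27ac and 2.46 and 2.49 kb of H3K9ac. Summed over windows, 8 mesenchymal and endothelial markers held 43.0 and 43.7 kb of H3K27ac and 30.4 and 25.2 kb of H3K9ac, and 10 cholangiocyte markers 85.8 and 92.6 kb of H3K27ac and 68.5 and 62.8 kb of H3K9ac. The 8 hepatocyte markers summed to 15.9 and 18 kb of H3K27ac and 8.64 and 7.82 kb of H3K9ac, and the 8 leukocyte markers to 16.2 and 18.5 kb of H3K27ac and 13.2 and 12.4 kb of H3K9ac. The part of other cell types in these values was not tested, and over a window a peak need not belong to the gene it is counted for.

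Restricting the sums to 2.5 kb on each side of the start, or of both gene ends where no strand was known, changed what was compared. Of 12217 genes tested 2081 (17.0%) had more H3K27ac and 2238 (18.3%) more H3K9ac relative to the median. The medians themselves differed by -0.24 on the log2 scale at starts and by -0.08 over gene windows, H3K27ac below H3K9ac. Without equal medians 597 genes had more H3K27ac and 5119 more H3K9ac, so H3K27ac made up 10.4% of the calls in place of 48.2%, and the raw lengths of the marks did not overlap in 1396 of the 2081 genes with more H3K27ac. Leaving out H3K9ac replicate 1 or replicate 2 left 957 and 925 genes with more H3K27ac and 1036 and 1105 with more H3K9ac.

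At starts the largest values toward H3K27ac belonged to genes whose H3K9ac was at or near 0. FAM186A held 3.49 and 3.45 kb of H3K27ac and 0 of H3K9ac, CPA4 2.48 and 3.0 kb of H3K27ac and 0 of H3K9ac, and BATF 2.39 and 2.94 kb of H3K27ac and 0 of H3K9ac (log2 differences 3.22 ± 0.07, 2.93 ± 0.09 and 2.89 ± 0.09; limma adjusted p = 1.04e-05 for each). C11orf91, PSG1 (a pregnancy-specific glycoprotein gene), PTP4A1 (a phosphatase gene), C13orf46 and VXN followed at 2.77, 2.69, 2.56, 2.42 and 2.30. Toward H3K9ac, MYCN, the neural relative of MYC, was at 0 for H3K27ac and held 2.83 and 2.90 kb of H3K9ac. FST, encoding follistatin, which binds activin, was at 0 for H3K27ac and held 2.82 and 2.78 kb of H3K9ac. The Notch ligand gene DLL4 was at 0 for H3K27ac and held 2.59 and 2.30 kb of H3K9ac. DDN, NTNG2, DUSP8 (a MAP kinase phosphatase gene), NOL4L and COXFA4L2 completed the 8 at -2.58, -2.56, -2.43, -2.39 and -2.34. MYC, in contrast to MYCN, had more H3K27ac at its ends, with 5.98 and 6.87 kb of H3K27ac and 4.14 and 4.01 kb of H3K9ac.
Histone genes stood out at starts by the number called, with 39 of 59 tested having more H3K27ac and 3 more H3K9ac, beside 17.0% and 18.3%. H4C2 held 3.92 and 4.07 kb of H3K27ac and 2.36 and 2.14 kb of H3K9ac. These genes are short, clustered and near-identical copies, so their windows overlap and reads may be shared between copies, and the count fell to 8 and 5 without equal medians.

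The windows disagreed for a set of genes. In 207 genes there was more H3K27ac over the gene window and more H3K9ac at the start, and in 24 genes the reverse, while 1409 and 1736 genes had more H3K27ac and more H3K9ac in both. ATRNL1, a gene of the attractin family, had 6.74 and 7.43 kb of H3K27ac and 2.17 and 1.97 kb of H3K9ac over its window, but 0 and 0 kb of H3K27ac and 1.5 and 1.44 kb of H3K9ac at its start. DNM3, encoding a dynamin, had 15.2 and 15.2 kb of H3K27ac and 5.34 and 3.43 kb of H3K9ac over its window, but 0 and 0 kb of H3K27ac and 1.16 and 1.02 kb of H3K9ac at its start. CGNL1, encoding the junction protein paracingulin, had 6.13 and 5.78 kb of H3K27ac and 2.83 and 2.31 kb of H3K9ac over its window, but 0 and 0 kb of H3K27ac and 1.30 and 1.40 kb of H3K9ac at its start. CDK6, a cell cycle kinase gene, and HK2, a hexokinase gene, followed the same pattern with both marks at the start: CDK6 had 1.54 and 1.53 kb of H3K27ac and 3.07 and 3.14 kb of H3K9ac there and 19 H3K27ac-only regions in its window. HK2 had 0.763 and 0.346 kb of H3K27ac and 1.83 and 1.79 kb of H3K9ac at its start. The call for HK2 was lost without H3K9ac replicate 1 (log2 difference -0.95) and replicate 2 (-0.91). ATRNL1, DNM3 and CGNL1 are named because they rank among the 7 largest of these genes by the smaller of the 2 differences, a choice made after their values were seen.

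By chromosome, H3K27ac length over H3K9ac length was lowest on chromosome 19, at 1.06 with library pairs from 0.971 to 1.16, and highest on chromosome 18, at 1.64 with pairs from 1.47 to 1.82. Chromosome 19, the most gene-dense human chromosome and home of many ZNF clusters, held 2.83 and 3.13 Mb of H3K27ac and 2.92 and 2.69 Mb of H3K9ac. It was the only chromosome where a library pair fell below 1, and it held 4.92% of the genes with more H3K27ac over the gene window, 9.25% of those with more H3K9ac and 7.79% of all genes tested. The longest region with both marks was chr22:46062904-46091209 (hg38), a stretch of 28306 bp inside a gene and covered over 28229 and 28306 bp by H3K27ac and 26702 and 26365 bp by H3K9ac. Another among the longest, picked after its values were seen, was at FOXA2, a liver and gut endoderm factor, with 17514 and 17597 bp of H3K27ac and 16740 and 15365 bp of H3K9ac.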

How the data were processed

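ChIP-seq of H3K27ac, H3K9ac and SMAD3 was made in H69 cells, and the vehicle libraries of the acetylation marks (2 each) were compared. Cells were fixed with 1% formaldehyde for 10 min and sequenced as 51-base read pairs, per the labels' protocols. BWA, Picard, MACS2 and bedtools were used with build hg38, per the submitters' processing notes, with versions, thresholds and the choice of input not given in the sources used here. Each library has 1 deposited peak file, whose score is −log10 of a p-value or q-value; which of them is unknown, so scores only ranked peaks inside a library. The 4 vehicle acetylation libraries shared 1 lane, per the file headers. Without reads or counts, depth is unknown and intervals for counting error are not possible.

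Autosomes and X were used. Gene spans came from RefSeq (GRCh38.p14), and strand from its promoter table for 79.2% of protein-coding genes. Peak length was summed per gene over its span with 10 kb on each side, and over 2.5 kb on each side of its start (both ends where strand is not known). Locations of peaks and regions and their distances to a start also took both ends of such genes. Genes entered a fit if the 4 libraries averaged at least 500 bp. log2(bp + 500) was centred on each library's median over genes covered in every library, and limma 3.58.1 (R 4.3.3) gave p-values that were Benjamini-Hochberg adjusted over all genes tested. The labels do not say that libraries of a mark came from separate cultures, so p-values measure the spread between these libraries, which may be technical. The fit was tested on simulated data with known changes.

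Genes were named by rule: in each window and direction, the 8 loci with the largest difference among genes that passed and whose libraries did not overlap, up to 2 such members of each list, and a set of names. Genes outside it are marked in the text; of the members shown, WNT3, WNT4, NOTCH3 and HEYL complete a count. The members and the 28 lists were chosen with earlier results of these data known; the list of histone genes also holds members made outside replication. Some genes that the rule names are not reported here. Alternatives were other flanks, pseudocounts, filters, centring, peak numbers, score limits, region rules, left-out libraries and a fit with the 4 treated acetylation libraries added. Python 3.11.15, pandas 2.3.3 and matplotlib 3.10.9 made the tables and plots.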

Additional observations from a re-analysis of the deposited data

How the results depend on the processing

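Directions were stable for most named genes: of 1770 values from single genes under another setting, 1734 kept direction and side of the threshold, 29 lost the call, 7 gained it and none of the 1770 changed sign. Many of these genes were named for large differences that had passed in the main fit, so stability follows in part from that choice. A gene left out by a setting's filter gave no value for it. Counts in the lists moved by over 1.5 times in 108 of 840 cases. Over gene windows, genes with more H3K27ac numbered 3447 to 3795 and genes with more H3K9ac 2861 to 3978 when a library was left out; with 50 kb flanks 6700 genes had more H3K9ac. At starts, leaving out a library gave 925 to 1911 genes with more H3K27ac and 1036 to 2552 with more H3K9ac. With 1 kb on each side of the start 845 genes had more H3K27ac. Without equal medians 597 had more H3K27ac and 5119 more H3K9ac at starts. Merging across gaps of up to 1000 bp gave 20342 regions with both marks, 6654 with H3K27ac only and 2852 with H3K9ac only, since regions then join; asking that at least 50% of a region be covered left 19220 with both marks; equally many peaks per library left 8922 with H3K27ac only. Leaving out a library gave 32745 to 35916 regions with both marks, 20385 to 37184 with H3K27ac only and 5852 to 11206 with H3K9ac only. The difference in the share of peaks at starts was -14.3 points within 2.5 kb, -5.04 after cutting each library to equally many peaks, and -13.4 to -9.80 when a library was left out. Except where stated, the cause was not tested. Marks share replicate numbers, but same-numbered libraries did not deviate together (correlation -0.0153 over gene windows and -0.00900 at starts), so pairing is not established; with the replicate number as a block, 3895 and 4222 genes had more H3K27ac and more H3K9ac over gene windows and 2262 and 2597 at starts. One setting was chosen after seeing the data: with genes of known strand alone, 1530 and 1710 genes were called at starts. Read depth is unknown, so peaks too weak to be called in a shallower library cannot be told from absent ones.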

Other observations

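Gene families looked at after the values were seen are given as counts with no test, beside 27.4% of all genes with more H3K27ac and 30.3% with more H3K9ac over the gene window. Of 12 tested S100 genes, which encode small calcium-binding proteins of epithelia, all 12 had more H3K27ac over the gene window and 0 more H3K9ac, although many lie in 1 cluster and share peaks. Of 11 tested annexin genes 10 had more H3K27ac and 0 more H3K9ac, and of 16 serpin genes 8 and 1. Of 12 tested carcinoembryonic and pregnancy-specific glycoprotein genes, which lie side by side on chromosome 19, 11 and 0 did so, with a median log2 difference of 1.32. Protocadherin genes went the other way, with 2 of 40 having more H3K27ac and 28 more H3K9ac; most share windows within their clusters. H3K9ac-only starts made up 9 of 57 protocadherin, 16 of 97 potassium, sodium and calcium channel, 14 of 162 homeobox and related developmental factor and 0 of 18 S100 starts, against 5.26% of all starts. HOX genes carried neither mark at all 20 known starts, as did 312 of 314 olfactory receptor genes, against 31.3% of all starts.

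Divergent starts had both marks more often than the rest. Of 1605 starts with an opposite-strand start at most 1 kb upstream, 94.2% had both marks, 0% H3K27ac only and 1.5% H3K9ac only, against 56.4%, 0.380% and 5.68% of the other 14206 starts. At the divergent starts with both marks, mean length over the 2.5 kb upstream was 1100 and 1156 bp for H3K27ac and 1423 and 1360 bp for H3K9ac, close to the 1026 and 1081 bp and 1347 and 1284 bp downstream. Both starts of a divergent pair are in this set, so the upstream side of each is largely the downstream side of its partner. Near-equal sides thus follow from how the set was defined. At the other starts with both marks the upstream means were 682 and 721 bp for H3K27ac and 790 and 729 bp for H3K9ac, against 1216 and 1270 bp and 1539 and 1477 bp downstream.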
